A study of Mus musculus with 11 samples.

Results

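The 10 genes described here are the stress-response factor Atf4, 2 genes induced through the same response (Ddit3 and Ddit4), 3 genes of amino acid synthesis (Asns, Psat1 and Phgdh) and 4 amino acid transporter genes (Slc7a5, Slc3a2, Slc1a5 and Slc38a2). They were chosen by name and not by their values, though with earlier results of these data known. They are 10 of the 52997 genes in the count table. All 10 passed the filter on low counts and were tested. Gene expression was measured by Smart-seq2 in 11 libraries, each made from 1000 double-sorted clonotype+ Treg cells. The question was how the transcripts of these cells differed between visceral adipose tissue (VAT) and pooled spleen and lymph nodes (Spl/LN), and how they changed after immunization with Fat1562, a surrogate peptide for the vTreg53 T cell receptor (TCR).

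The sorted cells were CD45.2+ Treg cells from male vTreg53 Tg+ Foxp3-GFP KI/y mice, taken from pooled spleen and lymph nodes and transferred into male CD45.1+ C57BL/6 mice. After 6 weeks the recipients were primed subcutaneously and, 1 week later, boosted intraperitoneally. The 4 groups were Spl/LN with adjuvant alone (n = 3), Spl/LN with adjuvant/Fat1562 (n = 3), VAT with adjuvant alone (n = 2) and VAT with adjuvant/Fat1562 (n = 3). The labels give an age of 15 weeks and male sex for all of them. They call the control mice unimmunized and name PBS, where the study's methods describe adjuvant alone, and the latter name is used here. All groups carried the same TCR, which derives from a single expanded VAT-Treg clone, so the values describe 1 receptor and not Treg cells at large. The recipients kept their own T cells, and clonotype+ donor cells were sorted away from them. VAT was digested with collagenase at a warm temperature before the sort, so tissue and digestion cannot be told apart in any comparison of VAT with Spl/LN.

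ATF4 is the transcription factor at the centre of the integrated stress response, in which kinases that sense amino acid shortage, unfolded protein or heme deficiency slow general translation while ATF4 is translated more. ATF4 binds composite C/EBP-ATF elements and induces genes for amino acid synthesis and uptake. In T cells, activation raises the demand for amino acids, and the same genes also answer to mTORC1 and Myc. Because ATF4 is controlled largely at translation, its transcript level is not a measure of its protein.

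The promoter of Asns is shown because it holds the C/EBP-ATF element, and those of Slc38a2 and Phgdh because these genes moved in opposite directions between the tissues with adjuvant alone. Each window runs from 250 bases before to 50 bases after the annotated start, 5′ to 3′ on the gene's strand, from RefSeq (GRCm38.p6). Capitals mark the element, searched as TGATGNAA on both strands, with N any base.
Asns (chr6:7693160-7693459, minus strand): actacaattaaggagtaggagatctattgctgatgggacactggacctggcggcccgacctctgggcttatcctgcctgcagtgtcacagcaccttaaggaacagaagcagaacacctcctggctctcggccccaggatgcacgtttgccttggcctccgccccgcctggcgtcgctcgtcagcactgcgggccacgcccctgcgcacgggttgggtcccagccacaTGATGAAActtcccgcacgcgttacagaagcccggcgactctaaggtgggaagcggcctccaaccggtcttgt
Slc38a2 (chr15:96699679-96699978, minus strand): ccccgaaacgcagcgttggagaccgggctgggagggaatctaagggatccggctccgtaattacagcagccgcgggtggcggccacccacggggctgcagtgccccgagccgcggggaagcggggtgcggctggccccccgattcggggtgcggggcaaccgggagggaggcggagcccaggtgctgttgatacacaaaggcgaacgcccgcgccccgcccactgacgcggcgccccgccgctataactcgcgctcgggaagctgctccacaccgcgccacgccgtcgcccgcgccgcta
Phgdh (chr3:98339920-98340219, minus strand): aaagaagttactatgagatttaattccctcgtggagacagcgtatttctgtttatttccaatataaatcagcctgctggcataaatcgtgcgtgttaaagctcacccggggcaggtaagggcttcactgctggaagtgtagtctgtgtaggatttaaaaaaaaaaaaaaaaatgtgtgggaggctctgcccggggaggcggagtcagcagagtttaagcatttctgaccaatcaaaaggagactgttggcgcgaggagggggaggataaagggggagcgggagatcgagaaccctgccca
The Asns element spans 23 to 16 bases before the start. RefSeq windows matched 8 of the 10 genes, with 9 windows since Psat1 has a pair of starts, and the unmatched genes were Slc7a5 and Slc1a5. The element was in 1 of the 9 windows and in 3.97% of all 32851 windows. The E-box CACGTG, which is read the same on both strands, was in 0 of the 9 windows and in 7.15% of all windows. A match describes letters only and says nothing of binding, and sequence outside the windows was not searched.

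Total counts ran from 4490242 to 6570057 per library, and the spread between replicates, as edgeR's common biological coefficient of variation, was 19.1%. Foxp3, the lineage factor of Treg cells, was between 6776 and 10300 normalized counts in every library, and Cd4 between 2124 and 3533. The summed level of 8 T and Treg markers was 31792 to 50810 normalized counts, against 69 to 227 for 4 B cell markers, 23 to 122 for 9 myeloid markers, 1 to 21 for 5 adipocyte markers and 11 to 41 for 4 stromal markers. Over the libraries, the adipocyte markers ranged from 0 to 8.25 for Adipoq, 15.0 for Fabp4, 1.25 for Plin1 and Lep and 3.76 for Cfd. The 3 endothelial markers summed to 243 to 596, mostly Pecam1, with Cdh5 and Kdr at 5.63 or below in every library. Pecam1 was at 512, 463 and 503 in Spl/LN with adjuvant alone, 569, 498 and 495 in Spl/LN with Fat1562, 294 and 236 in VAT with adjuvant alone, and 587, 592 and 414 in VAT with Fat1562. The 5 CD8 and NK cell markers summed to 166 to 1102, of which Nkg7 was the larger part after Fat1562. Nkg7 rose after Fat1562 in both tissues, by 2.11 ± 0.32 (SE) in Spl/LN and 2.82 ± 0.36 in VAT on the log2 scale. Klrb1c was at 0.97, 2.09 and 3.67 in Spl/LN with adjuvant alone and rose there to 16.3, 30.1 and 30.6 (edgeR adjusted p = 0.0462), a call lost when any 1 of 5 of the 6 Spl/LN libraries was left out (0.0706 to 0.154), and it was at 0 to 4.09 in VAT. Cd8b1 was at 66.5 to 194 in every library, and edgeR called it in no comparison. It was highest in VAT with adjuvant alone (172 and 194), against 102, 99.4 and 118 in Spl/LN with adjuvant alone. Between these groups DESeq2 and limma each called 1 of the 3 tested genes of this list higher in VAT, and edgeR 0. Cd8a and Ncr1 were at 6.42 or below in every library.

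Between VAT and Spl/LN with adjuvant alone, 4 of the 10 genes were higher in VAT and 1 was lower. Those higher were Asns, which makes asparagine, Slc38a2, a sodium-coupled transporter of small neutral amino acids, Slc3a2, the CD98 heavy chain that carries several transporters to the cell surface, and Atf4 itself. Phgdh, the first enzyme of serine synthesis from glucose, was lower. Calls were made where edgeR's quasi-likelihood test over 12932 genes gave an adjusted p below 0.05. Of all these genes, 9.09% were called higher and 7.17% lower in VAT.

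Slc38a2 (chr15:96687392-96699730, minus strand, GRCm38) stood at 303, 286 and 315 normalized counts in Spl/LN with adjuvant alone and at 818 and 902 in VAT with adjuvant alone. Both VAT libraries were above all Spl/LN libraries, a log2 fold change of 1.51 ± 0.14 (SE; edgeR adjusted p = 6.77e-07). Asns (chr6:7675169-7693254, minus strand), whose promoter is printed above, was at 57.2, 34.5 and 26.6 in Spl/LN and at 151 and 132 in VAT. Its groups did not overlap, and its difference was 1.84 ± 0.29 (SE) on the log2 scale (edgeR adjusted p = 0.00018). Atf4 (chr15:80255184-80257541, plus strand) was at 674, 612 and 778 in Spl/LN and at 1352 and 1208 in VAT, a log2 fold change of 0.90 ± 0.12 (edgeR adjusted p = 4.24e-05). Slc3a2 (chr19:8706882-8723369, minus strand) was at 1093, 1112 and 1267 in Spl/LN and at 2353 and 1845 in VAT, a log2 fold change of 0.86 ± 0.11 (edgeR adjusted p = 2.8e-05). For both genes every VAT library was above every Spl/LN library.

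Phgdh (chr3:98313170-98339990, minus strand) went the other way. It was at 1110, 995 and 961 normalized counts in Spl/LN and at 574 and 644 in VAT with adjuvant alone, with no overlap and a log2 fold change of -0.75 ± 0.12 (edgeR adjusted p = 0.000292). Of the 38-base stretches of its exons, 53.3% also occur in other annotated genes, chiefly processed copies such as Gm7901 and Gm9347. Those copies held at most 8 and 10 raw counts in any library, against 514 to 1282 for Phgdh. Whether reads that fit several places were dropped was not tested, and such a loss would touch the level of Phgdh.

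The remaining 5 genes were not called between the tissues with adjuvant alone. Slc1a5 (chr7:16781340-16798274, plus strand), the ASCT2 transporter of glutamine and other neutral amino acids, was at 1948, 1846 and 2208 in Spl/LN and at 2321 and 2356 in VAT, a log2 fold change of 0.22 (95% interval 0.03 to 0.42, adjusted p = 0.142 in edgeR). Both VAT libraries were higher, and without Spl/LN adjuvant alone replicate 3 it was called (0.30, edgeR adjusted p = 0.0482). Of 19 alternative settings, 18 left Slc1a5 uncalled. Psat1, the next enzyme of serine synthesis, was at 823, 639 and 514 in Spl/LN and at 730 and 676 in VAT, a difference of 0.09 (interval -0.24 to 0.43) with the VAT values inside the Spl/LN range. Ddit4, known as REDD1, an inhibitor of mTORC1, differed by -0.08 (interval -0.41 to 0.26). Ddit3, the stress factor CHOP, differed by -0.18 (interval -0.64 to 0.28), and its groups overlapped, as did those of Ddit4. Slc7a5, the LAT1 light chain for large neutral amino acids, was at 22.3, 13.6 and 29.3 in Spl/LN and at 28.3 and 36.3 in VAT, a difference of 0.56 ± 0.47 (SE).

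**Figure D1:**
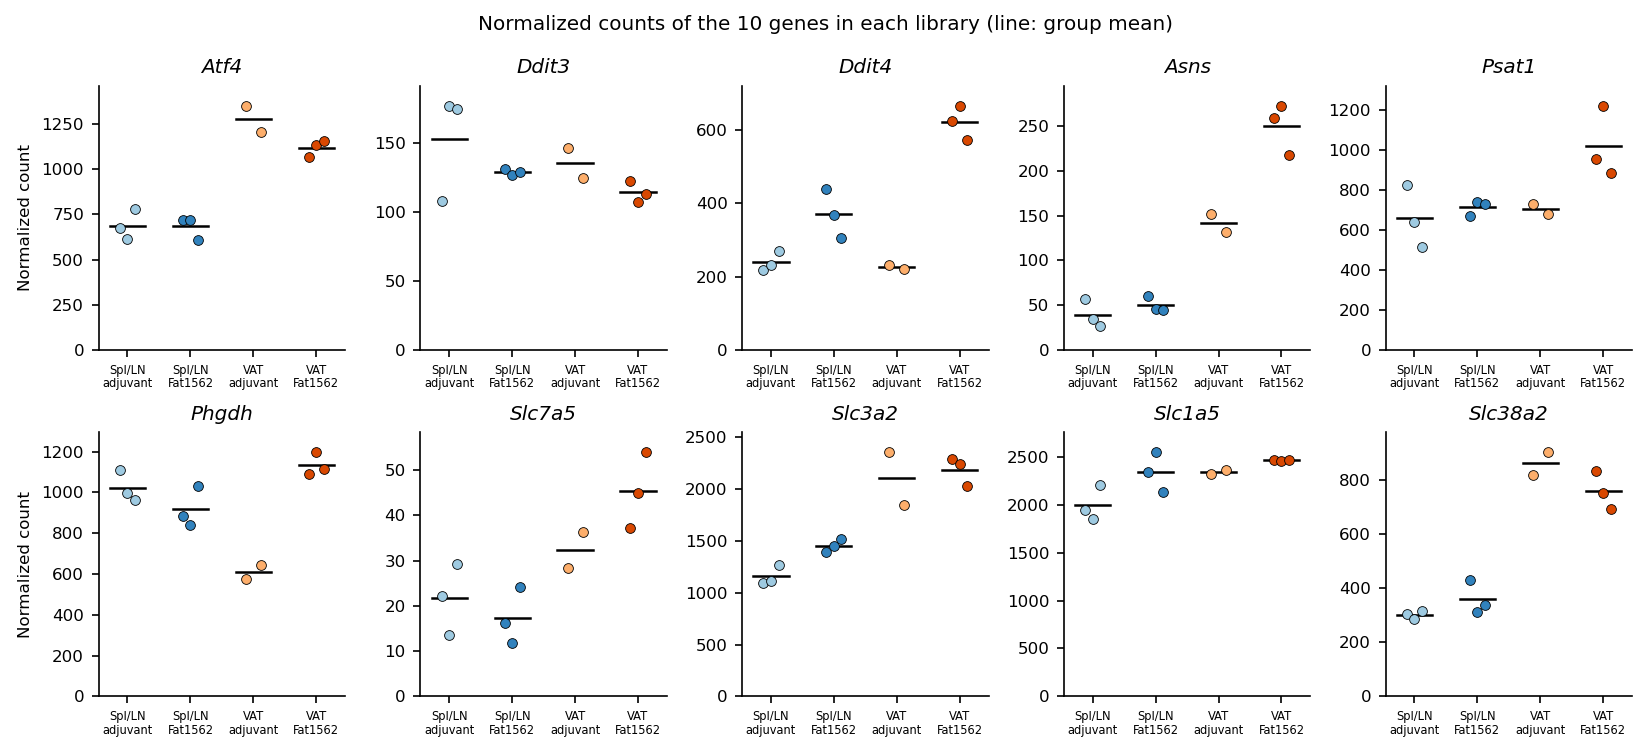
Normalized counts (y axes, linear and from 0) of the 10 genes in each of the 11 libraries, with 1 panel a gene, points for libraries and a line for the mean of each of the 4 groups. Atf4, Asns, Slc38a2 and Slc3a2 sit higher in both VAT groups, Ddit4 is highest in VAT with adjuvant/Fat1562, and Phgdh is lowest in VAT with adjuvant alone.

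The plot of normalized counts sets each library beside the mean of its group. Early-response genes differed with tissue in the same libraries. The summed level of 14 genes known to rise on tissue dissociation was 7937 to 9626 normalized counts over both Spl/LN groups, 106350 to 125688 in VAT with adjuvant alone and 44848 to 55513 in VAT with adjuvant/Fat1562. Of the 14, 13 were higher in VAT with adjuvant alone, and after Fat1562 9 fell in VAT. Of all tested genes, 9.09% were called higher in the former comparison and 3.97% lower in the latter. Of 9 tested glucocorticoid-responsive genes, 5 were higher in VAT with adjuvant alone and 5 fell in VAT after Fat1562. The latter count was 3 in limma and 2 at the lowest with a library left out. In edgeR, Tsc22d3 was not called without VAT adjuvant alone replicate 1 or VAT adjuvant/Fat1562 replicate 2 or 3 (adjusted p = 0.0553 to 0.244), Errfi1 without either VAT control library or VAT adjuvant/Fat1562 replicate 1 or 2 (0.071 to 0.223), and Il7r when any 1 of 8 libraries was left out (0.0512 to 0.675). Their part in the results on the 10 genes was not tested.

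With adjuvant/Fat1562, 7 of the 10 genes were higher in VAT than in Spl/LN and 0 were lower, where 8.26% and 6.73% of all tested genes were called higher and lower. They were Asns, Slc38a2, Atf4 and Slc3a2, as with adjuvant alone, and Ddit4, Psat1 and Slc7a5. With a library left out the count was 5 to 8. Asns had the largest log2 fold change of the 10. It was at 60.3, 46.2 and 44.2 in Spl/LN and at 258, 273 and 218 in VAT, a log2 fold change of 2.31 ± 0.26 (SE; edgeR adjusted p = 5.22e-06). Slc38a2 was at 430, 313 and 337 against 831, 749 and 693, a log2 fold change of 1.07 ± 0.13 (edgeR adjusted p = 1.49e-05). Each of these VAT libraries exceeded each Spl/LN library. Atf4 was at 718, 721 and 611 against 1065, 1132 and 1158, a difference of 0.71 ± 0.11 (edgeR adjusted p = 0.000199). Slc3a2 was at 1390, 1446 and 1516 against 2287, 2242 and 2023, a difference of 0.59 ± 0.10 (edgeR adjusted p = 0.00054). Neither gene's groups overlapped.

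Of the 3 further genes, Ddit4 (chr10:59949669-59951834, minus strand) was at 439, 369 and 305 in Spl/LN and at 624, 666 and 572 in VAT, a log2 fold change of 0.74 ± 0.14 (edgeR adjusted p = 0.00164). Its groups did not overlap. Psat1 (chr19:15904678-15947337, minus strand) was at 670, 737 and 731 against 955, 1220 and 883, a log2 fold change of 0.52 ± 0.15 (edgeR adjusted p = 0.0273). The VAT libraries were higher and spread more widely, with replicate 2 at the top. Without VAT adjuvant/Fat1562 replicate 2 the difference was 0.36 (edgeR adjusted p = 0.179), and without each Spl/LN adjuvant/Fat1562 library in turn the adjusted p was 0.103, 0.0652 and 0.0645.

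Slc7a5 (chr8:121881150-121907694, minus strand) was low in every library. It was at 16.3, 11.8 and 24.1 normalized counts in Spl/LN and at 37.2, 45.0 and 54.0 in VAT with adjuvant/Fat1562, a log2 fold change of 1.37 ± 0.42 (edgeR adjusted p = 0.038). The groups did not overlap. The adjusted p was 0.113 and 0.141 without Spl/LN adjuvant/Fat1562 replicates 1 and 2, it was 0.0611 and 0.0987 without VAT adjuvant/Fat1562 replicates 1 and 2 and 0.13 without replicate 3, and it was 0.108 with no filter on low counts. Phgdh was at 882, 842 and 1031 against 1091, 1198 and 1114, a log2 fold change of 0.30 with adjusted p = 0.0604 in edgeR. It was not called, and every VAT library lay above every Spl/LN library. Without Spl/LN adjuvant/Fat1562 replicate 3, the highest of its group, the difference was 0.40 (edgeR adjusted p = 0.0307), and without Spl/LN adjuvant alone replicate 3 the adjusted p was 0.0469. DESeq2 also called it (0.0333). Of 19 alternative settings, 13 left Phgdh uncalled. Slc1a5 differed by 0.07 (95% interval -0.10 to 0.25) between tissues with adjuvant/Fat1562 and Ddit3 by -0.18 (interval -0.59 to 0.23). Both were uncalled. The groups of Slc1a5 overlapped, and those of Ddit3 did not.

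**Figure D2:**
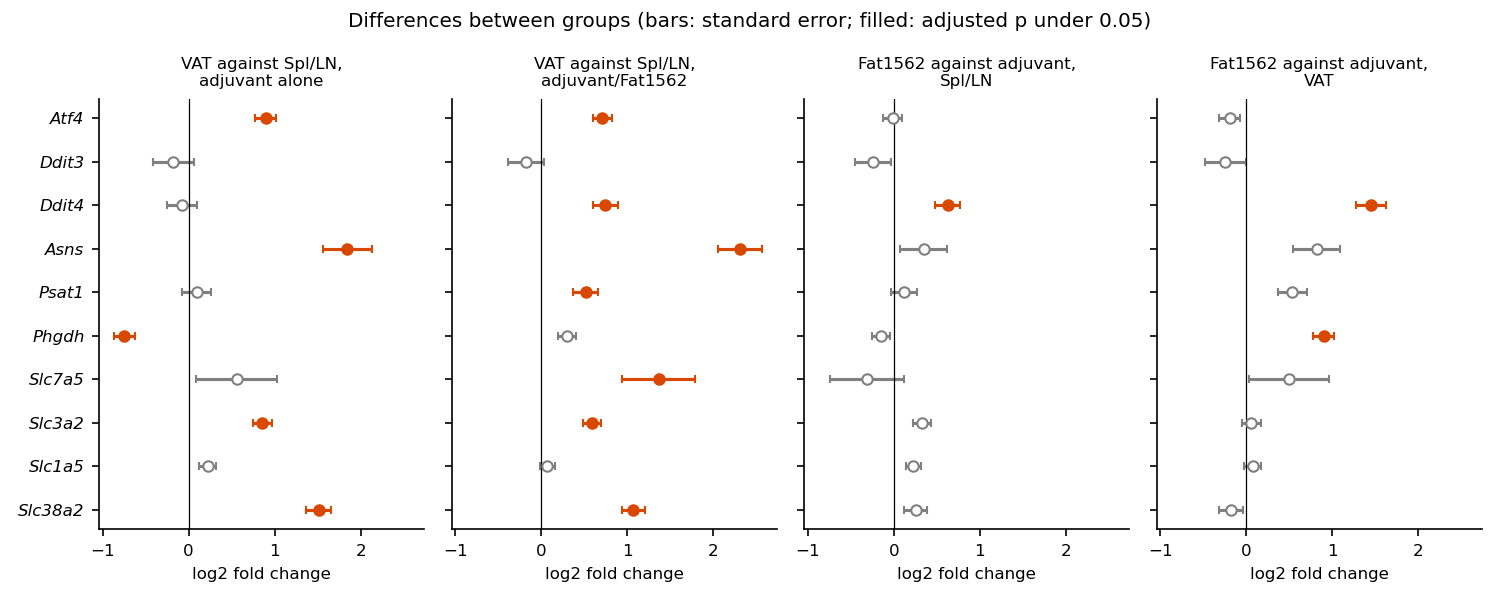
Log2 fold changes (x axes) of the 10 genes in the 4 comparisons between pairs of groups, with bars of 1 standard error and filled orange points for genes called at an adjusted p under 0.05. The tissue comparisons hold 5 and 7 called genes, and the comparisons of adjuvant/Fat1562 with adjuvant alone hold 1 in Spl/LN and 2 in VAT.

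The plot of log2 fold changes sets the tissue comparisons beside those of immunization. Those comparisons share groups of libraries, so their values are not independent. In VAT, adjuvant/Fat1562 against adjuvant alone gave 2 of the 10 genes called higher and 0 lower, against 4.32% and 3.97% of all tested genes. Ddit4 was at 232 and 222 with adjuvant alone and at 624, 666 and 572 with Fat1562, and the groups lay far apart. It rose 2.74-fold in group means, a log2 fold change of 1.45 ± 0.17 (SE; edgeR adjusted p = 3.5e-05). Phgdh was at 574 and 644 with adjuvant alone and at 1091, 1198 and 1114 with Fat1562. It rose 1.86-fold in group means, with no overlap and a log2 fold change of 0.90 ± 0.12 (edgeR adjusted p = 0.000132).

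Asns and Psat1 did not pass the test in VAT, at a log2 fold change of 0.82 ± 0.27 (adjusted p = 0.0785 in edgeR) and 0.53 ± 0.17 (adjusted p = 0.0659). Asns was at 151 and 132 with adjuvant alone and at 258, 273 and 218 with Fat1562, and Psat1 at 730 and 676 against 955, 1220 and 883. The groups did not overlap for either gene. Both passed in DESeq2, with adjusted p = 0.0448 for Asns and 0.0323 for Psat1. Both also passed without Spl/LN adjuvant alone replicate 1, at 0.0351 and 0.0307, and without replicate 3 of that group, at 0.0295 and 0.0225. Those libraries belong to neither group compared. Of 19 alternative settings, 14 left Asns uncalled and 12 left Psat1 uncalled.

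Transport genes and Atf4 were not called in VAT after Fat1562. Slc3a2 differed by 0.06 (95% interval -0.16 to 0.28), Slc1a5 by 0.07 (interval -0.12 to 0.27), Slc38a2 by -0.18 (interval -0.46 to 0.09) and Slc7a5 by 0.49 ± 0.47 (SE) on the log2 scale. Atf4 differed by -0.19 (interval -0.43 to 0.04) and Ddit3 by -0.25 (interval -0.71 to 0.22). The groups did not overlap for Atf4 and Ddit3, lower with Fat1562, or for Slc1a5 and Slc7a5, higher with it. Those of Slc3a2 and Slc38a2 overlapped.

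In Spl/LN, 1 of the 10 genes was called higher after Fat1562 and 0 lower, against 2.58% and 1.4% of all tested genes. It was Ddit4, at 218, 232 and 269 normalized counts with adjuvant alone and 439, 369 and 305 with Fat1562. The groups did not overlap, and the log2 fold change was 0.63 ± 0.15 (SE; edgeR adjusted p = 0.0232). The call was lost without Spl/LN adjuvant alone replicate 1 or 2 (adjusted p = 0.0706 and 0.0595 in edgeR), without Spl/LN adjuvant/Fat1562 replicate 1 or 2 (0.12 and 0.0864), and with only the 2 Spl/LN groups in the fit (0.0636). Over these settings the log2 fold change stayed between 0.49 and 0.63. Slc3a2 differed by 0.33 ± 0.10 without being called (adjusted p = 0.0875), and all 3 Fat1562 libraries lay above the control libraries. Slc1a5 differed by 0.23 (adjusted p = 0.174) and Slc38a2 by 0.26 (adjusted p = 0.323), both with overlapping groups. Phgdh differed by -0.15 (95% interval -0.36 to 0.05), Asns by 0.35 (interval -0.19 to 0.89), Psat1 by 0.11 (interval -0.18 to 0.41), Slc7a5 by -0.31 ± 0.43 (SE) and Atf4 by -0.01 (interval -0.23 to 0.21).

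The effect of Fat1562 was compared between the tissues through the interaction term. Phgdh was the 1 gene of the 10 called there, against 1.7% of tested genes called higher and 2.02% called lower. Its response was larger in VAT by 1.05 ± 0.16 (SE) on the log2 scale (edgeR adjusted p = 0.0011). Of the 3 genes listed as endothelial markers, Cdh5 and Kdr were at 5.63 or below in every library, and Pecam1 moved with Phgdh. It was lower in VAT with adjuvant alone (-0.89 ± 0.17), rose in VAT after Fat1562 (1.00 ± 0.17) and was called in the interaction (0.92 ± 0.22, edgeR adjusted p = 0.0267), the last call being lost when any 1 of 6 libraries was left out (0.052 to 0.148). Its part in the result on Phgdh was not tested. For Ddit4 the difference between tissues was 0.82 ± 0.22, with adjusted p = 0.0504 in edgeR. It fell under the threshold without Spl/LN adjuvant alone replicate 1 (0.0499) or Spl/LN adjuvant/Fat1562 replicate 1 (0.0289), and in DESeq2 (0.0156). Of 18 alternative settings, 12 left the Ddit4 interaction uncalled. For the other genes the adjusted p was 0.253 or above, the nearest being Slc38a2 at -0.44 ± 0.19.

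Ddit3 (chr10:127290774-127296288, plus strand) was called in no comparison. It was at 108, 177 and 174 normalized counts in Spl/LN with adjuvant alone, 131, 127 and 129 in Spl/LN with Fat1562, 146 and 124 in VAT with adjuvant alone, and 122, 107 and 113 in VAT with Fat1562. The controls of Spl/LN spanned nearly all other values. Its exons overlap those of Mars, on the opposite strand, by up to 68 bases, and without a statement on strand, reads from that stretch cannot be told apart.

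Other genes of serine, glycine, one-carbon and related amino acid metabolism were read from a list of 14, of which 12 were tested. With adjuvant alone, 2 were higher in VAT and 1 lower, with a median log2 fold change of 0.03 beside -0.03 over all tested genes. Of all tested genes, 9.09% were called higher and 7.17% lower. Glul, glutamine synthetase, was higher by 3.09 ± 0.19 and Got1, a transaminase of aspartate, by 1.82 ± 0.17 (edgeR adjusted p = 3.27e-09 and 6.16e-07). Mthfd2, a mitochondrial one-carbon enzyme, was lower by 0.58 on the log2 scale, at 560 ± 48 (SD, n = 3) normalized counts in Spl/LN against 374 ± 11 (SD, n = 2) in VAT, and edgeR's adjusted p was 0.00439, or 0.0526 without VAT adjuvant alone replicate 1. With adjuvant/Fat1562, 6 of the 12 were higher in VAT and 0 lower, against 8.26% and 6.73% of all tested genes, with a median of 0.70. They included Shmt2, which turns serine into glycine in mitochondria, at 0.76 ± 0.11, and Bcat1, a transaminase of branched-chain amino acids, at 1.58 ± 0.32.

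In VAT after Fat1562, 3 of the 12 rose and 1 fell, against 4.32% and 3.97% of all tested genes. In Spl/LN edgeR and limma called 0 and DESeq2 1, and at an unadjusted p under 0.05 edgeR had 1 higher and 2 lower. Over all 12932 tested genes, edgeR called 2.58% higher and 1.4% lower in Spl/LN, and 2371 had an unadjusted p under 0.05. In VAT, Mthfd2 rose from 366 and 382 to 556, 584 and 623 normalized counts, a log2 fold change of 0.65 ± 0.13 (edgeR adjusted p = 0.00391). Mthfd1l, a mitochondrial formate-producing enzyme, rose from 341 and 344 to 623, 607 and 495 (0.75 ± 0.16, edgeR adjusted p = 0.00575). Bcat1 rose from 38.1 and 51.4 to 157, 158 and 85.1 (1.58 ± 0.37, edgeR adjusted p = 0.012). For each of these genes the groups were apart, as for Phgdh. With 1 of the 2 control libraries in VAT left out, some calls were lost by edgeR. Without replicate 1 the adjusted p was 0.0543 for Mthfd2, 0.0588 for Mthfd1l and 0.136 for Bcat1, and without replicate 2 it was 0.0561 for Mthfd1l and 0.0563 for Bcat1. Bcat1 was also not called without VAT adjuvant/Fat1562 replicate 2 (0.0591). Glul fell from 912 and 1016 to 406, 305 and 292 (-1.53 ± 0.18, edgeR adjusted p = 3.5e-05). In the interaction term Bcat1 and Mthfd2 were higher by 2.49 ± 0.49 and 0.74 ± 0.17, and Glul was lower by 1.93 on the log2 scale, while Mthfd1l was not called. The term for Mthfd2 was not called when any 1 of 6 libraries was left out (edgeR adjusted p = 0.0516 to 0.0937), nor that for Bcat1 without VAT adjuvant alone replicate 1 (0.0551).

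**Figure D3:**
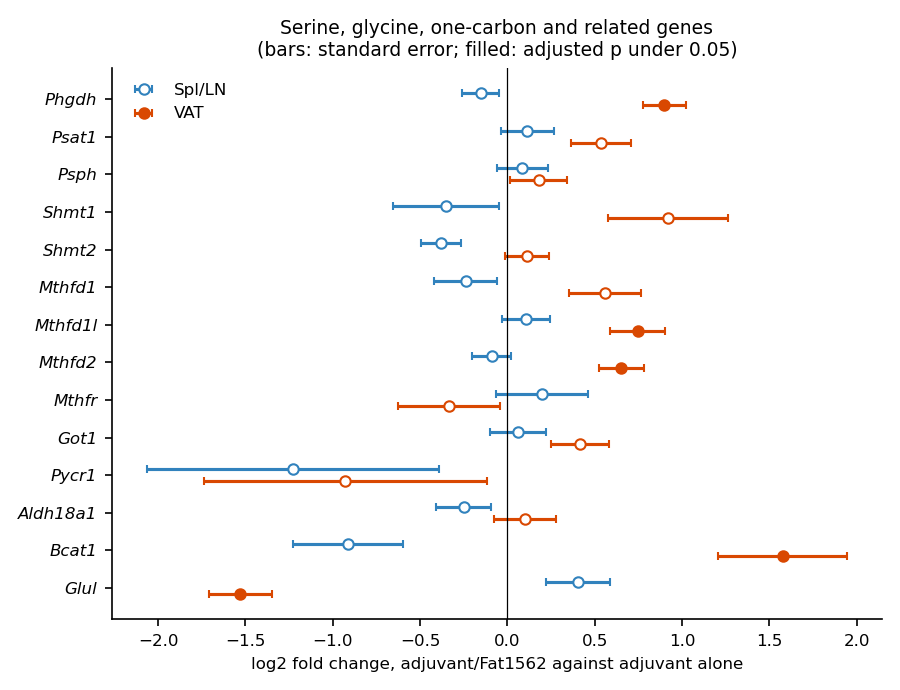
Log2 fold change of adjuvant/Fat1562 against adjuvant alone (x axis) in Spl/LN (blue) and VAT (orange) for Phgdh, Psat1 and the 12 tested genes of serine, glycine, one-carbon and related synthesis, with bars of 1 standard error and filled points for an adjusted p under 0.05. In VAT, Phgdh, Mthfd1l, Mthfd2 and Bcat1 are filled to the right of 0 and Glul to the left, and no Spl/LN point is filled.

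The plot for serine and one-carbon genes shows the 2 tissues side by side. Of 24 further genes of the integrated stress response, 17 were tested. With adjuvant alone 4 were higher in VAT and 0 lower (median log2 fold change 0.26), against 9.09% and 7.17% of all tested genes. With adjuvant/Fat1562 6 were higher and 0 lower (median 0.39), against 8.26% and 6.73%. Ppp1r15a, the GADD34 subunit that restores translation, was at 229 ± 62 (SD, n = 3) normalized counts in Spl/LN and at 7043 ± 394 (SD, n = 2) in VAT with adjuvant alone, a log2 fold change of 4.94 ± 0.17. Atf3, a stress-induced repressor, was at 0.97, 0 and 0 in Spl/LN and at 537 and 239 in VAT with adjuvant alone (edgeR adjusted p = 1.9e-07). Eif4ebp1, an inhibitor of translation initiation, and Ndrg1 were higher by 0.77 ± 0.17 and 0.47 ± 0.14. Ndrg1 lost its call without Spl/LN adjuvant alone replicate 2 or either VAT control library (edgeR adjusted p = 0.0631 to 0.208).

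In VAT after Fat1562, 1 of the 17 rose and 3 fell, against 4.32% and 3.97% of all tested genes. In Spl/LN 0 rose and 1 fell, against 2.58% and 1.4%. Those that fell in VAT were Ppp1r15a (-1.37 ± 0.15), Atf3 (-3.69 ± 0.45) and Eif2ak1, the heme-sensing kinase (-0.47 ± 0.14). The gene that rose was Cebpb, from 5.45 and 5.01 to 33.9, 35.8 and 48.5 normalized counts (edgeR adjusted p = 0.0153). Cebpb was not called without either VAT control library or VAT adjuvant/Fat1562 replicate 2 or 3 (edgeR adjusted p = 0.0505 to 0.129), and Eif2ak1 was not called when any 1 of 6 libraries was left out (0.0563 to 0.253). In Spl/LN, Ppp1r15a fell by 0.77 on the log2 scale, with adjusted p = 0.0794 in edgeR without Spl/LN adjuvant/Fat1562 replicate 2. Ppp1r15a and Atf3 fell in the libraries in which the summed early-response genes were lower, and their part in that difference was not tested. In the interaction term edgeR, DESeq2 and limma each called 0 of the 17, and at an unadjusted p under 0.05 edgeR had 3 higher and 3 lower. Over all 12932 tested genes, edgeR called 1.7% higher and 2.02% lower there, and 2191 had an unadjusted p under 0.05.

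Among 21 other amino acid transporter genes, 15 were tested. With adjuvant alone 3 were higher in VAT and 2 lower, against 9.09% and 7.17% of all tested genes. With adjuvant/Fat1562 3 were higher and 1 lower, against 8.26% and 6.73%. Slc7a1, a carrier of cationic amino acids, was higher in both settings by 1.09 ± 0.18 and 0.98 ± 0.16. Slc43a2, a carrier of large neutral amino acids, was higher by 0.66 ± 0.13 and 0.71 ± 0.12, and Slc6a6, the taurine carrier, by 0.98 ± 0.18 and 0.54 ± 0.17. The latter call was lost when any 1 of the 6 libraries compared was left out (edgeR adjusted p = 0.0504 to 0.126). Slc7a10, a carrier of small neutral amino acids, was lower in VAT. It was at 196, 79.5 and 52.3 normalized counts in Spl/LN with adjuvant alone, and at 6.54 and 1.25 in VAT (edgeR adjusted p = 0.00191). In VAT after Fat1562, 1 of the 15 rose, against 4.32% of all tested genes called higher. This was Slc7a7, from 2.18 and 3.76 to 56.4, 36.8 and 29.3 (edgeR adjusted p = 0.00159). It was at 15.6 to 50.8 in the Spl/LN libraries.

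Levels of different genes were compared per kb of annotated exon. On that scale Slc1a5 and Slc3a2 were the most abundant of the 4 transporter genes, with group means of 479 to 590 and 328 to 619 normalized counts per kb. Slc38a2 had group means of 34.1 to 97.3 and Slc7a5 of 4.69 to 12.2. Slc3a2 forms dimers with any of 6 light chains, and of these Slc7a6, which exchanges cationic and neutral amino acids, was the most abundant in every group. Its group means were 82.8 to 104 per kb, 8.47 to 20.3 times those of Slc7a5. The lowest library of Slc7a6 was at 79.5 and the highest of Slc7a5 at 14.6, so the 2 genes did not overlap. Slc7a10 was next in Spl/LN, at 51.7 ± 36.1 (SD, n = 3) with adjuvant alone, and Slc7a8 and Slc7a11 were under 2 per kb in every library.

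**Figure D4:**
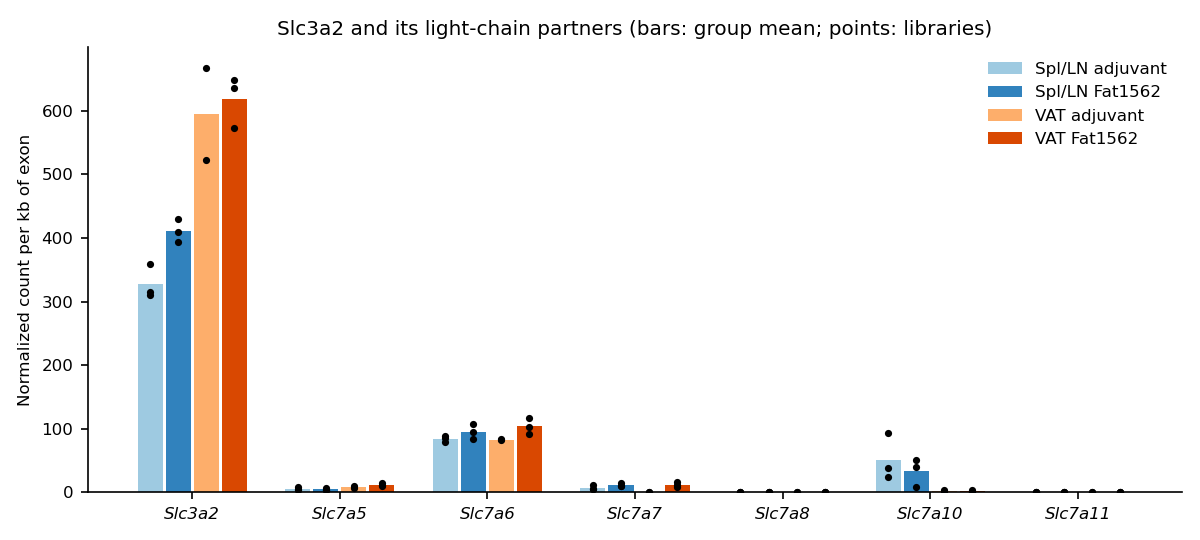
Normalized counts per kb of exon (y axis, linear and from 0) of Slc3a2 and its 6 light-chain partners in the 4 groups, with bars for group means and points for libraries. Slc3a2 runs from group means of 328 in Spl/LN with adjuvant alone to 619 in VAT with adjuvant/Fat1562, while Slc7a6 stays between 82.8 and 104 and Slc7a5 between 4.69 and 12.2.

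As the plot of levels per kb shows, Slc3a2 was higher in VAT while Slc7a6 was not called. The latter differed by -0.03 (95% interval -0.32 to 0.26) on the log2 scale between VAT and Spl/LN with adjuvant alone and by 0.12 (interval -0.13 to 0.38) with adjuvant/Fat1562. The summed light chains were at 150 and 146 per kb in Spl/LN and 95.3 and 131 in VAT, with adjuvant alone and adjuvant/Fat1562 in that order. Among the genes of synthesis, Phgdh was at 245 to 456 per kb over the group means, Psat1 at 155 to 240 and Asns at 14.4 to 91.3. Atf4 was at 290 to 543, Ddit4 at 129 to 354 and Ddit3 at 66.5 to 89.2.

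Of 18 tested genes of mTORC1 and its sensing of amino acids, 0 were higher in VAT with adjuvant alone, against 9.09% of all tested genes. Those called lower were 3, against 7.17% of all tested genes. They were Rptor, the Raptor subunit of mTORC1 (-1.0 ± 0.23), Sesn3, a stress-induced inhibitor of the pathway (-0.79 ± 0.21), and Tsc2, an upstream inhibitor (-0.49 ± 0.13). With adjuvant/Fat1562, Sesn1 and Sesn3 were lower in VAT and Rragd, a Rag GTPase, was higher, and in VAT after Fat1562 Sesn1 fell by 0.66 on the log2 scale (edgeR adjusted p = 0.00683). The remaining 17 genes were not called in VAT after Fat1562, where edgeR called 4.32% of all tested genes higher and 3.97% lower. In Spl/LN edgeR, DESeq2 and limma each called 0 of the 18, and at an unadjusted p under 0.05 edgeR had 1 higher and 3 lower. Over all 12932 tested genes, edgeR called 2.58% higher and 1.4% lower there, and 2371 had an unadjusted p under 0.05. Several of these calls were lost with a library left out, in VAT with adjuvant alone Rptor and Sesn3 without VAT adjuvant alone replicate 1 (edgeR adjusted p = 0.0791 and 0.198) and Tsc2 without replicate 2 (0.178) or Spl/LN adjuvant alone replicate 2 (0.0531). With adjuvant/Fat1562, Rragd lost it when any 1 of 6 libraries was left out (0.0506 to 0.188), Sesn3 without Spl/LN adjuvant/Fat1562 replicate 1 or VAT adjuvant/Fat1562 replicate 2 or 3 (0.0501 to 0.0936), and Sesn1 without VAT adjuvant/Fat1562 replicate 2 (0.0697). The fall of Sesn1 in VAT lost it without VAT adjuvant alone replicate 2 (0.133).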

How the data were processed

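RNA was measured in 11 Smart-seq2 libraries of 1000 sorted cells. The authors deposited a table of counts, whole numbers with no normalization for 52997 genes, from paired reads of 38 bases after 18 PCR cycles. The submitters' processing notes name STAR 2.5.4, featureCounts and mm10, and the study's methods name Cuffquant with a filter on minimal expression (above 10) and a coefficient of variation under 0.7. The annotation and the use of strand are not given in the sources used here. No molecular identifiers are named, so intervals cover the spread between libraries and counting error, not molecules lost before amplification. Labels and column names gave each library its group, with 0 columns unmatched. The methods call libraries biological replicates without tying them to mice, so p-values measure the spread between these libraries.

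The 12932 genes whose scaled counts averaged above 10 in any group entered a single edgeR 4.0.16 quasi-likelihood fit of the 4 groups in R 4.3.3 (TMM, prior count 0.125), with Benjamini-Hochberg adjustment over all of them. A gene was called under 0.05. Normalized counts are scaled to the mean library total. Standard errors are the log2 fold change over the root of the F statistic, and 95% intervals are 1.96 standard errors either way. Gene positions, exon lengths and shared 38-base stretches come from GENCODE vM21 (GRCm38). The steps were tested on counts simulated from the fitted spread, with no effect of mouse. That test cannot speak to pairing by mouse.

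The genes, lists and tests were chosen with earlier results of these data known. Named were the 10 genes in every comparison, Foxp3 and Cd4, and up to 4 called genes per list and comparison, lowest adjusted p first. Slc7a6, Slc7a8 and Slc7a11 were added after their values were seen, as partners of Slc3a2, and Mthfd1l in the interaction, Il7r and the cell type markers that were not called likewise. Alternatives were other filters, median-of-ratios size factors, DESeq2 1.42.0, limma 3.58.1 on quantile-normalized values, only the groups compared, a replicate block, and each library left out.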

Additional observations from a re-analysis of the deposited data

Results flagged for a closer look

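The response of Phgdh to Fat1562 differed between the tissues. The interaction term in edgeR was 1.05 on the log2 scale (adjusted p = 0.0011), with a rise of 0.90 in VAT and a difference of -0.15 in Spl/LN that was not called. All 3 VAT libraries with Fat1562 lay above both VAT libraries with adjuvant alone, and the Spl/LN groups overlapped. With each library left out in turn, the interaction of Phgdh stayed between 0.98 and 1.15. Groups of 2 or 3 libraries were too small for a test of outlying libraries within a group. Of the genes listed as endothelial markers, Cdh5 and Kdr were at 5.63 or below in every library. Pecam1 had an interaction of 0.92 in the same direction, a call lost with some single libraries left out. Its part was not tested.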

How the results depend on the processing

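Over 50 values of the 10 genes in 5 comparisons, 35 kept their direction and their side of the threshold under every alternative run. Of 935 alternative values, 882 kept both, 15 lost the call, 25 gained it and 13 changed sign, none of the latter from a called value. With 2 or 3 libraries a group, differences of uncalled genes are bounded only by the intervals given. The share of all tested genes whose groups did not overlap was not counted, so a lack of overlap describes the libraries only.

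In VAT after Fat1562, 4 of the 10 genes were called with DESeq2, with only the 2 groups compared and with the replicate block, and 2 to 4 with a library left out. In Spl/LN, 0 were called with only the 2 groups compared and 0 to 1 with a library left out. In the interaction, 2 were called with no filter, with a mean above 50, with the coefficient of variation filter and with DESeq2, and 1 to 2 with a library left out. The cause was not tested.

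Over all genes, leaving out a library gave 1259 to 2114 calls between tissues with adjuvant alone (2102 with all), 1289 to 2377 with adjuvant/Fat1562 (1938), 508 to 1398 for Fat1562 in VAT (1073), 190 to 502 in Spl/LN (515) and 240 to 575 in the interaction (481). In Spl/LN, no filter and DESeq2 each gave 793 calls, and DESeq2 gave 789 in the interaction.

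Changes of sign were in small differences. Slc1a5 between tissues with adjuvant/Fat1562 was -0.011 with quantile normalization, and the Ddit3 interaction was 0.0080 with a mean above 50. With a library left out, the log2 ranges were -0.14 to 0.015 for Ddit4 and -0.054 to 0.29 for Psat1 between tissues with adjuvant alone, -0.10 to 0.24 for Slc3a2 in VAT after Fat1562, -0.084 to 0.089 for Atf4 and -0.035 to 0.31 for Psat1 in Spl/LN after Fat1562, and -0.12 to 0.19 for the Ddit3 interaction.

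Libraries with the same replicate number had correlations of -0.04 to 0.06 in their deviations from group means (15 pairs). Those with other numbers had -0.06 to 0.04 (30 pairs), and 8 of 11 libraries correlated best with one of their own number. Deviations within a group sum to 0, so the correlations are tied to one another and the 8 are not independent. Only within 1 immunization could VAT and Spl/LN come from the same mouse. There, same-number pairs were at 0.037 and 0.030 with adjuvant alone and at 0.055, 0.030 and 0.030 with adjuvant/Fat1562. Other-number pairs of the tissues were at -0.058 to 0.028. The fit took no pairs, and pairing by mouse within each immunization was not tested. The replicate block joined libraries of the same number across both immunizations, so its blocks did not stand for mice. It raised Asns and Psat1 over the threshold in VAT after Fat1562 (adjusted p = 0.0309 and 0.0338 in edgeR). No other call among the 10 genes changed.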
